A study of Mus musculus with 16 samples.

Results

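The secreted Wnt antagonists are proteins that cells release to limit Wnt signalling. The 9 genes described here (Dkk1, Dkk2, Dkk3, Sfrp1, Sfrp2, Sfrp4, Sfrp5, Wif1 and Frzb) were taken by gene name from a table of 22559 genes, and all 9 had 1 row each. RNA was sequenced from cells sorted by flow cytometry from mouse femurs at postnatal day 6, with 4 libraries in each of 4 groups, 16 libraries in all. The groups are periosteal stem cells (PSC), progenitor populations type 1 (PP1) and type 2 (PP2), both periosteal, and endosteal mesenchymal stem cells (MSC), which the labels describe as negative for the Ctsk reporter. The genotype of every group, MSC included, was Ctsk-Cre positive with the mTmG reporter on a C57/B6 background. Samples came from a single litter on 1 day, without pooling.

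The Ctsk promoter drives Cre, which switches the mTmG reporter from a red to a green membrane protein in a cell and in its descendants, so the sort reads Ctsk expression past or present. The labels give no surface gates and do not say that the 4 libraries of a group came from separate animals. The p-values therefore cover only the spread among these libraries, which may be technical. Ctsk was read in every group, with a mean normalized count of 2751 for PSC, 12340 for PP1, 7393 for PP2 and 2082 for MSC. Of 2 marrow stroma markers, from a list of 7, Lepr averaged 850.5 in MSC, against 350.2 for PSC, 571.8 for PP1 and 537.7 for PP2, while Cxcl12 averaged 9512 in MSC but also 9907 in PP2 and 8312 in PP1. For Lepr, the MSC libraries (563.1 to 1050) overlapped those of PP1 (up to 795.3) and PP2 (up to 710.0). Neither gene therefore sets MSC apart from PP1 and PP2 here. The rest of the list was mixed. Acta2 (7237 to 8833) and Cspg4 (21290 to 31670) lay higher in every MSC library than in any other library. Kitl, Rgs5 and Pdgfrb averaged more in PP1 and in PP2 than in MSC. Chondrocyte marker genes were abundant in MSC and also in PSC. Recovered depth ran from 22.3 to 48.4 M reads per library, and MSC libraries were the deepest (39.5 to 48.4 M). Libraries of PP2 had a read in 11653 to 13165 genes, against 15506 to 15696 in MSC.

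Wnt ligands signal through Frizzled receptors and the co-receptors LRP5 and LRP6, and in the canonical branch this stabilises beta-catenin. In bone, canonical Wnt signalling promotes osteoblast formation. The antagonists act at different points. Dkk1 and Dkk2 bind the LRP co-receptors, together with Kremen proteins, while Dkk3 is a divergent relative whose effect on Wnt signalling depends on the cell type. The Sfrp proteins and Frzb, also called Sfrp3, carry a cysteine-rich domain like that of Frizzled and bind Wnt ligands, and Wif1 binds Wnt ligands through a domain of its own.

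The 9 genes split by sort. Dkk2, Dkk3, Sfrp2 and Sfrp4 were higher in PP1 and PP2 than in PSC, Frzb was highest in PSC and lowest in PP1, Wif1 was lower in PSC than in every other group, and Sfrp5 was lower in PP2 than in every other group. In the comparison of PSC with PP1, 8 of the 9 passed the test, 2 higher and 6 lower in PSC, where 31.2% of the 13797 tested genes passed (16.1% higher and 15.1% lower in PSC). Differences were tested with limma on log2(normalized count + 1), with Benjamini-Hochberg adjustment over all tested genes, a threshold of 0.05 and 4 libraries in each group, and every log2 difference and fold below is on that scale. A normalized count is the number of reads on a gene after the authors' scaling by a size factor for each library. In such bulk samples, fewer cells of a type and less RNA per cell cannot be told apart.

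**Figure D1:**
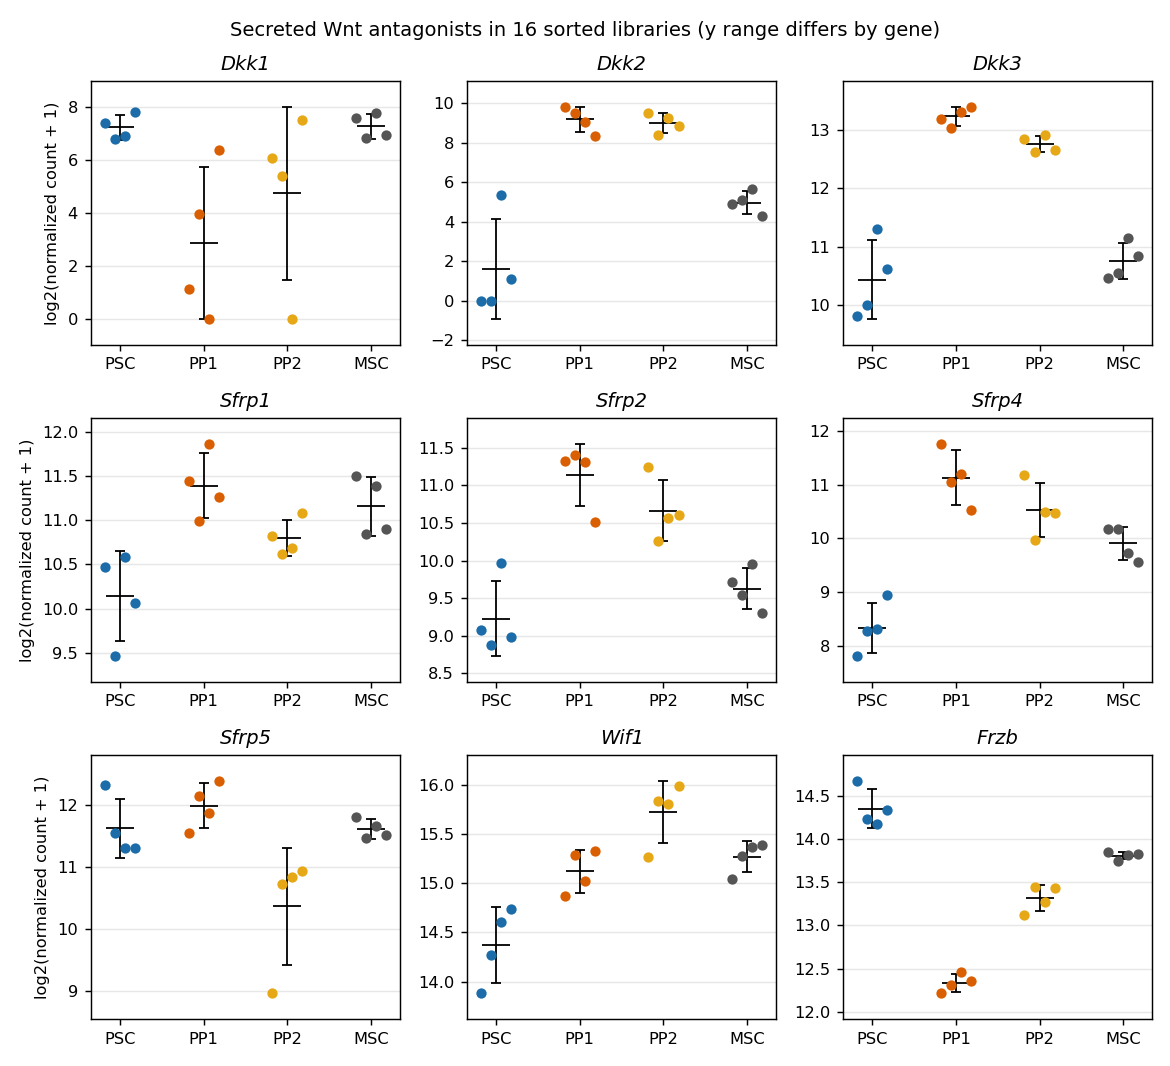
Normalized counts of the 9 antagonists on a log2(normalized count + 1) scale, 1 point per library in each of the 4 sorted groups, with the mean (bar) and SD. The vertical range differs between genes. The 4 PSC libraries lie above all others for Frzb (18510 to 26160) and below those of PP1 and PP2 for Dkk2, Dkk3, Sfrp2 and Sfrp4.

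Of the antagonists that act on the LRP co-receptors, Dkk1 was higher in PSC and in MSC than in PP1. Mice with less Dkk1 form more bone. The gene lies on the minus strand at chr19:30545863-30549665 (mm10, GENCODE M21). Its normalized counts in replicates 1 to 4 were 170.7, 110.6, 118.7 and 226.5 in PSC, 1.21, 14.6, 0 and 82.6 in PP1, 67.0, 40.9, 0 and 180.5 in PP2, and 191.4, 112.9, 220.0 and 122.0 in MSC. All PSC and MSC libraries lay above all PP1 libraries, while PP2 spanned from no read to the PSC range. In the libraries with no read, a count of 0 allows up to 3 reads, or a normalized count of 2.96 in PP1 replicate 3 and 3.98 in PP2 replicate 3, for counting error only. PSC exceeded PP1 in Dkk1 by 4.37 ± 1.37 (SE) on the log2 scale, with an adjusted p of 0.0198, and PP1 lay below MSC, with a log2 difference of -4.41 ± 1.37 and an adjusted p of 0.0264. These sizes rest on PP1 libraries near 0. The first call was lost in edgeR's quasi-likelihood test (adjusted p = 0.102) and without PSC replicate 4, PP1 replicate 1 or PP1 replicate 3 (adjusted p from 0.0516 to 0.0738). The second was lost in edgeR (0.131), in DESeq2 (0.0548) and without PP1 replicate 1 or 3 or MSC replicate 1 or 3 (0.0651 to 0.0828). PSC and MSC differed by -0.05 ± 1.37, with an adjusted p of 0.986, and the PP2 comparisons with PSC (2.49 ± 1.37, adjusted p = 0.179), MSC (adjusted p = 0.19) and PP1 (adjusted p = 0.599) did not pass. The SE of 1.37 is shared by all pairs of groups and includes the wide spread of PP1 and PP2. The PSC libraries (110.6 to 226.5) and MSC libraries (112.9 to 220.0) themselves covered nearly the same range.

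Dkk2, the second LRP-binding Dickkopf, had the widest range of group means among the 9 genes, and 2 PSC libraries held no read of it. It can block or assist Wnt signalling depending on the co-receptors a cell carries. The gene lies at chr3:132085292-132180304 on the plus strand. PSC libraries held normalized counts of 0, 0, 39.2 and 1.16, and MSC libraries 28.3, 32.8, 48.8 and 18.4. PP1 libraries held 900.1, 722.6, 533.4 and 322.2, and PP2 libraries 723.2, 334.6, 603.1 and 448.0. Each PP1 and PP2 library lay above every PSC and MSC library, whereas PSC replicate 3 reached into the MSC range. Dkk2 was lower in PSC than in PP1 (log2 difference -7.57 ± 0.90, adjusted p = 2.36e-06) and PP2 (-7.37 ± 0.90, adjusted p = 3.2e-06). It was 18.5-fold higher in PP1 than in MSC (adjusted p = 0.00238) and 16.2-fold higher in PP2 than in MSC (adjusted p = 0.00297). The sizes against PSC depend on the pseudocount, from -8.17 with 0.5 to -5.51 with 8 for PP1, and on PSC replicate 3, without which they were -8.81 for PP1 and -8.61 for PP2. The difference between PSC and MSC (-3.36 ± 0.90, adjusted p = 0.00963) was lost in edgeR (-1.57, adjusted p = 0.182) and in DESeq2 (-1.66, adjusted p = 0.26). PP1 and PP2 differed by 0.19 ± 0.90 (adjusted p = 0.965), with an SE that is shared by all pairs and includes the spread of the PSC libraries.

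Dkk3, the divergent family member, was higher in both progenitor groups than in PSC and in MSC. The gene lies on the minus strand at chr7:112116017-112159057. Normalized counts of Dkk3 were 897.2, 1023, 2528 and 1576 in PSC, 9352, 8321, 10060 and 10780 in PP1, 7315, 6318, 7729 and 6404 in PP2, and 1407, 1499, 2263 and 1836 in MSC. No PSC or MSC library reached the lowest progenitor library, and PSC replicate 3 was the highest outside PP1 and PP2. Dkk3 was 6.93-fold lower in PSC than in PP1 (log2 difference -2.79 ± 0.23, adjusted p = 2.12e-08) and 4.998-fold lower than in PP2 (adjusted p = 2.18e-07). Against MSC it was 5.57-fold higher in PP1 (adjusted p = 3.07e-07) and 4.02-fold higher in PP2 (adjusted p = 3.4e-06). PSC and MSC differed by -0.31 ± 0.23 (adjusted p = 0.356), which became -0.60 with an adjusted p of 0.0192 without PSC replicate 3. Every PP1 library lay above every PP2 library, but the difference of 0.47 ± 0.23 did not pass (adjusted p = 0.396).

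The proximal promoters of Dkk2, Sfrp2 and Sfrp5 are shown because the first 2 genes were higher in both progenitor groups than in PSC, while Sfrp5 was low in PP2. RefSeq (GRCm38.p6) gave a start for 6 of the 9 genes (Dkk1, Dkk2, Sfrp2, Sfrp5, Wif1 and Frzb), and the window is the 250 bases before that start, printed 5′ to 3′ on the gene's own strand. The 3 windows shown lie outside the GENCODE genes, at chr3:132085042-132085291 (plus strand) for Dkk2, chr3:83766071-83766320 (plus) for Sfrp2 and chr19:42202253-42202502 (minus) for Sfrp5. The RefSeq starts of Dkk1, Wif1 and Frzb lie inside the GENCODE genes, so that 169, 44 and 229 bases of their windows fall within the gene as placed here, and these are not printed. Capitals mark matches on either strand to a TCF/LEF core (CTTTGAT or CTTTGAA), a RUNX core (TGTGGT) or a TATA box (TATAAA).
Dkk2: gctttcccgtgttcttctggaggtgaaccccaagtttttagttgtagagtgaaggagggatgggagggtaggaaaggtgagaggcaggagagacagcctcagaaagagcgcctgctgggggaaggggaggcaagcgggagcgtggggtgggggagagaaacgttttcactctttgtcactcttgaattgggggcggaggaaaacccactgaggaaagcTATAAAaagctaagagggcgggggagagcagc
Sfrp2: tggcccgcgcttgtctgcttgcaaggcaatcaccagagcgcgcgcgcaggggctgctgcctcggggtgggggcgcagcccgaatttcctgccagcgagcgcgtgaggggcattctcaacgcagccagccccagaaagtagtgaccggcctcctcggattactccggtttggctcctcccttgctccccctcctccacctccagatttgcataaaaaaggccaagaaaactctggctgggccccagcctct
Sfrp5: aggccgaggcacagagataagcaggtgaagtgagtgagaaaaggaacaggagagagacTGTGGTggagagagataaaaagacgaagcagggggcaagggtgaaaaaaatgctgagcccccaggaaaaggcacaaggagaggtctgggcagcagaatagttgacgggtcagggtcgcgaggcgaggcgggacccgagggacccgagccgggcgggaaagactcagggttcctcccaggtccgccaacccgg
Dkk2 held a TATA box 32 bases before its start, Sfrp5 a RUNX core at 192 bases, and Sfrp2 no match. Of the windows not printed, that of Dkk1 held the TCF/LEF core 117 bases before the start, the RUNX core on the other strand at 207 bases and the TATA box at 54 bases. The Wif1 window held a TATA box on the other strand at 232 bases, and the Frzb window no match. Among 32851 promoter windows of this length, 7.5% held the TCF/LEF core, 14% the RUNX core and 12.4% the TATA box, so a match is a description of the sequence only. The count of CpG pairs was 7 in Dkk2, 16 in Sfrp2 and 13 in Sfrp5, against a median of 6 over all windows.

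Among the Sfrp genes, whose products bind Wnt ligands, Sfrp1, Sfrp2 and Sfrp4 were all lowest in PSC by mean. Sfrp1 restrains bone formation in mice and lies at chr8:23411502-23449632 on the plus strand. Its normalized counts were 1413, 705, 1537 and 1071 in PSC, 2779, 2027, 3724 and 2454 in PP1, 1802, 1574, 1649 and 2158 in PP2, and 2890, 1838, 2683 and 1910 in MSC. Every PSC library lay below every library of the other groups, with PSC replicate 3 at 1537 close to PP2 replicate 2 at 1574. Sfrp1 was 2.37-fold lower in PSC than in PP1 (log2 difference -1.24 ± 0.22, adjusted p = 0.00027) and 2.02-fold lower than in MSC (adjusted p = 0.00258). The difference from PP2 was smaller, 1.57-fold with an adjusted p of 0.0312. It was lost in edgeR (0.0546), with only the 8 libraries compared (0.0716), without PSC replicate 2 (0.136) or 4 (0.07), and without PP2 replicate 1 (0.0558) or 4 (0.0903), or both PP2 replicates 1 and 3 (0.084). PP1, PP2 and MSC were not separated, with log2 differences of 0.59 for PP1 against PP2 (adjusted p = 0.26), 0.23 for PP1 against MSC (0.51) and -0.36 for PP2 against MSC (0.265).

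Sfrp2 lies at chr3:83766321-83774316 on the plus strand and shares 347 exon bases with the antisense gene Gm26771. The strand setting of the counting is not given in the sources used here, so reads of the 2 genes cannot be told apart there. Sfrp2 read 537.9, 470.7, 996.6 and 505.2 in PSC, 2556, 2723, 2537 and 1467 in PP1, 2417, 1229, 1511 and 1554 in PP2, and 839.3, 742.3, 987.9 and 629.3 in MSC. The PP1 and PP2 libraries were all above those of PSC and MSC, which overlapped each other. Sfrp2 was 3.77-fold lower in PSC than in PP1 (log2 difference -1.91 ± 0.25, adjusted p = 8.22e-06) and 2.72-fold lower than in PP2 (adjusted p = 0.000176). It was 2.86-fold higher in PP1 than in MSC (adjusted p = 0.000251) and 2.06-fold higher in PP2 (adjusted p = 0.00514), where the second call was lost without PP2 replicates 1 and 3 (adjusted p = 0.0643). The differences between PSC and MSC (-0.40 ± 0.25, adjusted p = 0.272) and between PP1 and PP2 (0.47 ± 0.25, adjusted p = 0.435) did not pass.

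Sfrp4, loss of which thins cortical bone in mice and in people, was the Sfrp gene with the widest range of group means. It lies at chr13:19623104-19632994 on the plus strand. The PSC libraries held 222.1, 306.7, 314.8 and 492.4 normalized counts, PP1 3485, 2114, 2348 and 1478, PP2 2315, 1000, 1437 and 1429, and MSC 1149, 1151, 847.5 and 752.1. PSC lay below all other libraries, PP1 lay above MSC, and PP2 overlapped both PP1 and MSC. Sfrp4 was 6.99-fold lower in PSC than in PP1 (log2 difference -2.81 ± 0.28, adjusted p = 2.25e-07), 4.59-fold lower than in PP2 (adjusted p = 4.83e-06) and 2.98-fold lower than in MSC (adjusted p = 0.000395). It was also 2.35-fold higher in PP1 than in MSC (adjusted p = 0.00364). PP2 and MSC differed by 0.62 ± 0.28 (adjusted p = 0.114), and PP1 and PP2 by 0.61 ± 0.28 (adjusted p = 0.368).

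Sfrp5 had another pattern, with its low level in PP2. It lies on the minus strand at chr19:42197971-42202252. Libraries of PSC read 5152, 2987, 2547 and 2553, of PP1 2989, 4544, 3765 and 5387, of PP2 497.9, 1701, 1840 and 1956, and of MSC 3603, 2828, 3238 and 2929. All PP2 libraries lay below all other libraries, and PP2 replicate 1 was the lowest of the 16. Sfrp5 was 3.08-fold higher in PP1 than in PP2 (log2 difference 1.62 ± 0.33, adjusted p = 0.019), and 2 of the 9 antagonists passed there, 1 in each direction, where 0.834% of tested genes did (0.478% higher and 0.355% lower in PP1). It was 2.39-fold higher in PSC than in PP2 (adjusted p = 0.00592) and 2.37-fold lower in PP2 than in MSC (adjusted p = 0.00928). The PP1 to PP2 call was lost without PP1 replicate 2 (adjusted p = 0.0576) or 4 (0.0717) and with only the 8 libraries compared (0.423), and the PSC to PP2 call with only those 8 libraries (0.0621). PSC, PP1 and MSC were not separated: the log2 differences were -0.37 for PSC against PP1 (adjusted p = 0.442), 0.01 for PSC against MSC (0.984) and 0.38 for PP1 against MSC (0.451).

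Frzb separated all 4 groups. It is made by cartilage and lies on the minus strand at chr2:80411970-80447625. Frzb read 26160, 19230, 18510 and 20630 in PSC, 4745, 5091, 5635 and 5250 in PP1, 8932, 11150, 9862 and 11020 in PP2, and 14770, 13740, 14400 and 14490 in MSC. No libraries of any pair of groups overlapped, and the order was PSC, MSC, PP2 and PP1 from high to low. All 6 comparisons passed: PSC exceeded PP1 by 4.05-fold (log2 difference 2.02 ± 0.10, adjusted p = 6.11e-11), PP2 by 2.05-fold (adjusted p = 2.78e-07) and MSC by 1.46-fold (adjusted p = 0.000832). PP1 was 1.97-fold below PP2 (log2 difference -0.98 ± 0.10, adjusted p = 4.77e-05) and 2.77-fold below MSC (adjusted p = 9.49e-09). PP2 was 1.41-fold below MSC (log2 difference -0.49 ± 0.10, adjusted p = 0.002). Each of these calls held in all 27 alternatives tried, with adjusted p of at most 0.043.

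Wif1 had the highest level per kb of exon of the 9 genes in every group, and was lower in PSC than in the other 3. It lies at chr10:121033960-121100650 on the plus strand. Wif1 read 15070, 19780, 24850 and 27360 in PSC, 29870, 39840, 33160 and 41110 in PP1, 39340, 58470, 57110 and 65190 in PP2, and 33830, 39670, 42200 and 42900 in MSC. The PSC libraries all lay below the rest, PP1 and MSC overlapped, and PP2 replicate 1 at 39340 lay within both while the other PP2 libraries were above both. Wif1 was 1.68-fold lower in PSC than in PP1 (log2 difference -0.75 ± 0.18, adjusted p = 0.0027), 2.55-fold lower than in PP2 (adjusted p = 6.71e-06) and 1.86-fold lower than in MSC (adjusted p = 0.000968). PP1 and PP2 differed by -0.60 ± 0.18 (adjusted p = 0.127), a difference that passed in DESeq2 (adjusted p = 0.0131) and without PP2 replicate 1 (0.0441). PP2 and MSC differed by 0.45 ± 0.18 (adjusted p = 0.0675), which passed in DESeq2 (0.0226), without PP2 replicate 1 (0.0157), without PP2 replicates 1 and 3 (0.0294) and without PSC replicate 1 (0.04). PP1 and MSC differed by -0.15 ± 0.18 (adjusted p = 0.603).

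**Figure D2:**
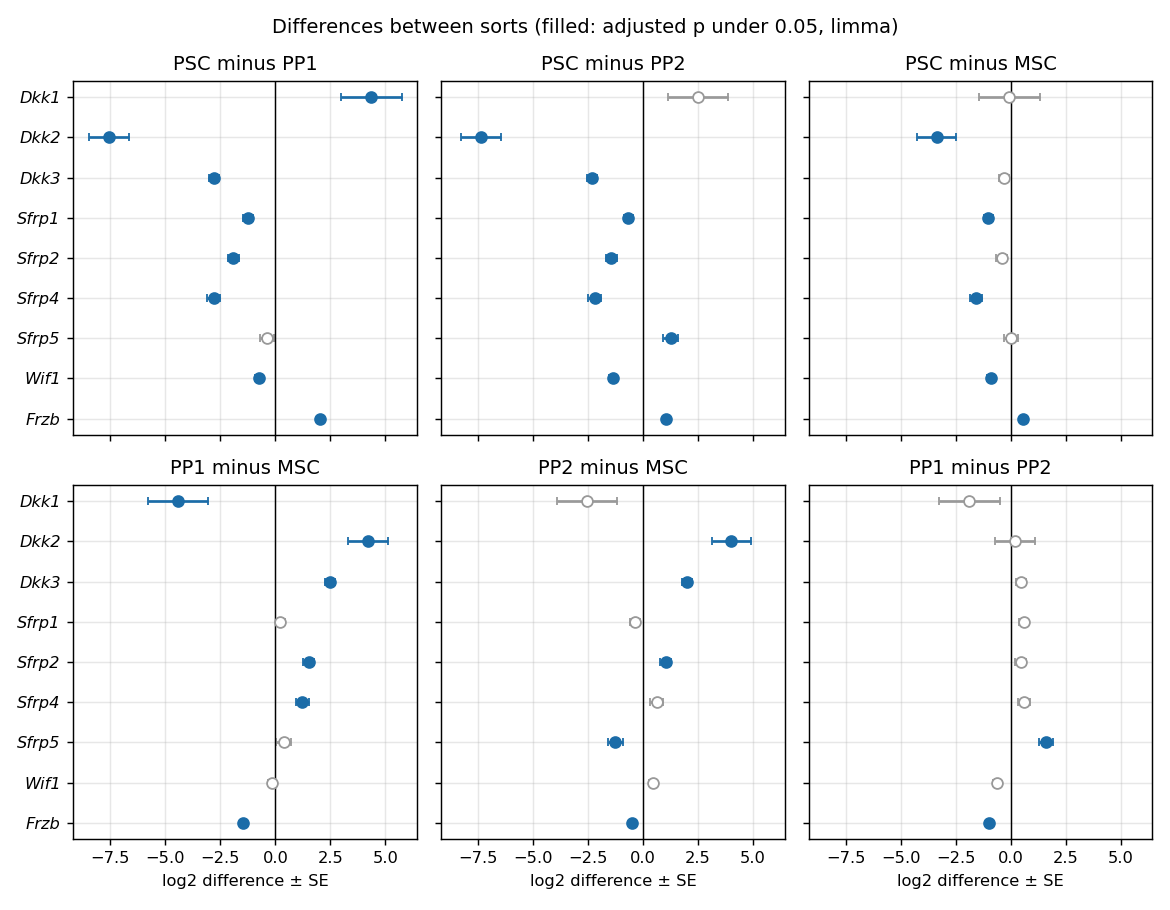
Log2 difference (first group minus second, in log2(normalized count + 1)) with its SE for each antagonist in the 6 pairs of groups, filled where the limma adjusted p was under 0.05. Frzb is filled in all 6 panels, and the PP1 to PP2 panel has 2 filled points, Sfrp5 and Frzb.

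Counted over the pairs of groups, 34 of 54 gene-by-pair comparisons passed, and the pairs share libraries, so they are not independent. PSC against PP2 also gave 8 of 9 (2 higher and 6 lower in PSC), beside 32.8% of tested genes (17.6% higher, 15.2% lower). PSC against MSC gave 5 of 9 (1 higher and 4 lower in PSC), beside 26.3% (12.1% higher, 14.2% lower). For PP1 against MSC the count was 6 (4 higher and 2 lower in PP1), beside 21.4% (8.88% higher, 12.6% lower), and for PP2 against MSC 5 (3 higher and 2 lower in PP2), beside 24% (9.28% higher, 14.7% lower). The median log2 difference of the 9 was -1.24 for PSC against PP1 and -1.35 for PSC against PP2, where the median of all tested genes was 0.04 and 0.08. It was -0.40 for PSC against MSC (all genes -0.18), 0.38 for PP1 against MSC (-0.18), 0.45 for PP2 against MSC (-0.19) and 0.47 for PP1 against PP2 (0.02). The libraries of the called genes did not overlap, except for Dkk2 between PSC and MSC. Over the 9 genes, libraries did not overlap for 8 between PSC and PP1 (28.9% of tested genes), 8 between PSC and PP2 (28.5%), 4 for PSC with MSC (38.7%), 3 for PP1 with PP2 (4.74%), 6 for PP1 with MSC (30.1%) and 5 for PP2 with MSC (30.5%).

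Per length, the antagonist RNA of every group was mostly Wif1 and Frzb. Divided by exon length, the level in normalized counts per kb averaged 8969 ± 2252 (SD, n = 4) for Wif1 for PSC, 14830 ± 2213 for PP1, 22670 ± 4548 for PP2 and 16340 ± 1698 for MSC. Frzb averaged 6528 ± 1070, 1600 ± 114, 3164 ± 323.7 and 4433 ± 134.2 per kb in the same order. Of the summed per-kb level of the 9 genes, Frzb made up 35.7 ± 6.7% for PSC, 6.72 ± 0.65% for PP1, 10.5 ± 0.94% for PP2 and 18.4 ± 1.4% for MSC. Wif1 made up 48.5 ± 9.7%, 61.7 ± 3.4%, 74.1 ± 3.9% and 67.5 ± 3.3%. Dkk3 took 12.04% of the sum in PP1 and 6.98% in PP2, against 2.41% in PSC and 2.14% in MSC, and Sfrp1, Sfrp2 and Sfrp4 together took 9.69% in PP1 against 3.47% in PSC. Dkk1 and Dkk2 together took the least, 0.361% for PSC, 0.759% for PP1, 0.589% for PP2 and 0.312% for MSC. The sum itself was 18400 ± 1566 per kb for PSC, 23940 ± 2356 for PP1, 30420 ± 4755 for PP2 and 24160 ± 1545 for MSC. Within each group the order of the 3 highest genes per kb was Wif1, Frzb and Sfrp5 in PSC and MSC, Wif1, Dkk3 and Sfrp5 in PP1, and Wif1, Frzb and Dkk3 in PP2. Among 13724 genes with an exon length, Wif1 ranked 191 for PSC, 105 for PP1, 74 for PP2 and 94 for MSC by mean per-kb level.

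**Figure D3:**
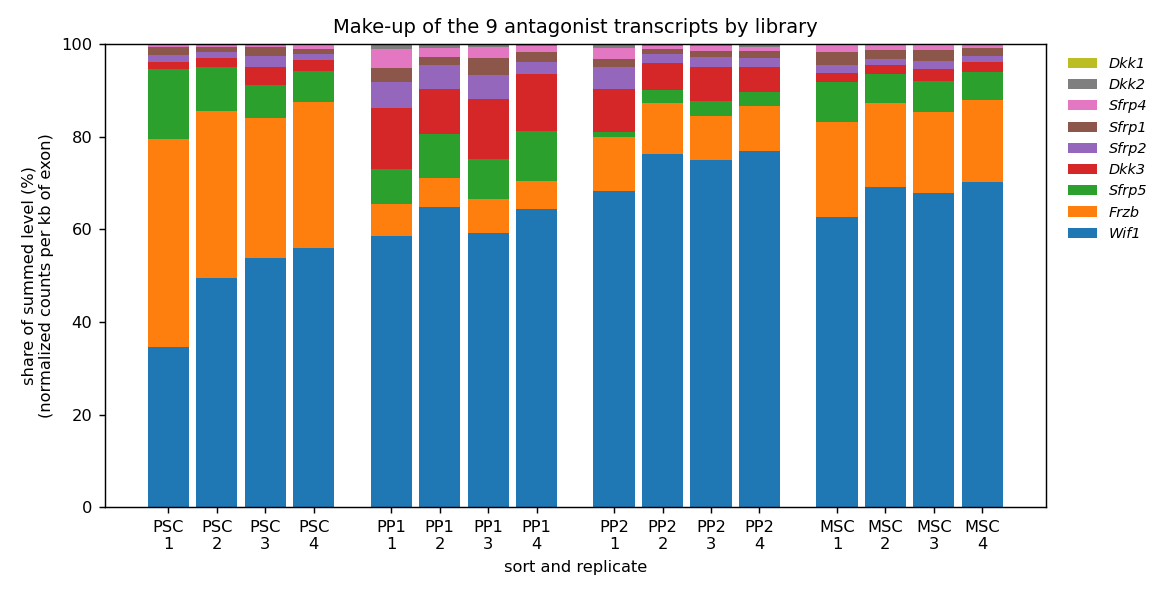
Share of the summed normalized count per kb of exon held by each antagonist, in percent, with a column for each library of each group. Frzb fills 30.1 to 45.0% of the PSC columns and 6.16 to 7.53% of the PP1 columns. Dkk3 is widest in PP1, at a mean of 12.04%.

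Markers of other cell types differed between the groups along with the antagonists. The summed normalized count of 8 fibroblast genes (Dpt, Clec3b, Pi16, Cd34, Pdgfra, Col3a1, Mfap5 and Cd248) ran from 32110 to 63660 in PSC, 329800 to 478300 in PP1, 299500 to 421500 in PP2 and 48610 to 87560 in MSC. All 8 were lower in PSC than in PP1 and in PP2, and all 8 higher in PP1 and in PP2 than in MSC, the direction of Dkk2, Dkk3 and Sfrp2 in the same pairs. In each of the 4 groups the library highest for this list was also the highest for Dkk2, a match picked out of 36 pairs of a gene and a list after the values were seen. The lowest libraries matched in 2 groups, with a tie at 0 in PSC. For Sfrp2 the highest libraries matched in 3 groups and for Dkk3 in 2. A chondrocyte list with 9 genes in the table was in the direction of Frzb between PSC and PP1 (9 of 9 higher in PSC) and PP2 (8 of 9). All 9 were also lower in PP1 and in PP2 than in MSC, like Frzb. Between PP1 and PP2, where Frzb differed, 0 of the 9 passed. Between PSC and MSC, Matn3, Matn1 and Hapln1 were higher in PSC, like Frzb, and Col2a1 was lower. The sum of the list was highest in MSC (6087000 to 9080000, against 3274000 to 5565000 in PSC), and Col2a1 made up most of it, with a mean of 6125000 in MSC and 2697000 in PSC. The tendon and ligament list had 5 of 6 genes lower in PSC than in PP1 and in PP2, and the articular surface list also 5 of 6. An osteoblast list summed to 1475000 to 2411000 in PP1 and 543000 to 1146000 in PSC, although 6 of its 8 genes were higher in PSC. Col1a1 made up most of that sum, with a mean of 1785000 in PP1 and 807300 in PSC. The part of these markers in the antagonist results was not tested.

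Lists of cells from outside the skeletal lineage were low, with some differences. Endothelial genes summed to 43.5 to 1047 in all libraries and blood genes to 1.33 to 918.0, and Ptprc, which marks blood cells, had no read in PSC or PP2. Skeletal muscle genes ran from 2830 to 5845 in PP2 against 374.1 to 626.6 in PSC. Schwann cell genes were highest in MSC (15640 to 22480) and osteoclast genes in a PP1 library (15660). The marrow stroma and pericyte list was lower in PSC than in MSC for 7 of 7 genes. Their part in the antagonist results was not tested either.

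**Figure D4:**
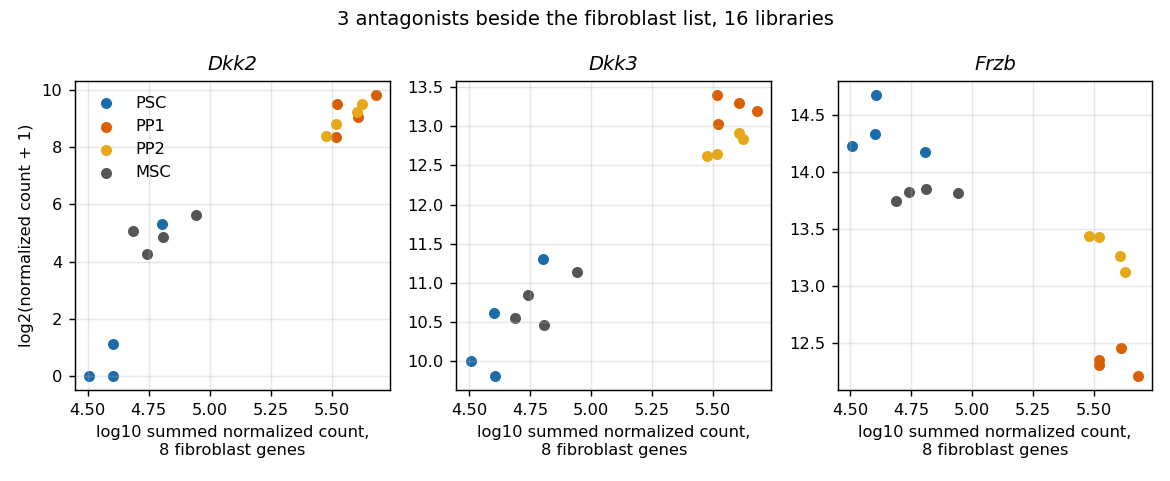
Log2(normalized count + 1) of Dkk2, Dkk3 and Frzb against the summed normalized count of the 8 fibroblast genes on a log10 axis, 1 point per library. Col3a1 makes up most of that sum. The PSC and MSC libraries lie left of 87560 and the PP1 and PP2 libraries right of 299500, so the libraries form separate clusters and no correlation is given.

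The other genes of the Wnt pathway were taken from 5 lists with 86 genes, of which 73 were tested. No list was tested as a set. Beside the counts below, 16.1% of all tested genes were higher and 15.1% lower in PSC than in PP1. For PSC against PP2 the shares were 17.6% and 15.2%. Against MSC, 12.1% were higher and 14.2% lower in PSC, 8.88% and 12.6% in PP1, and 9.28% and 14.7% in PP2. Ligands and antagonists did not follow 1 direction. Of 12 tested ligands, 4 were higher and 2 lower in PSC than in PP1, and 5 were higher and 1 lower in PSC than in PP2. Wnt5b averaged 8364 ± 1311 (SD, n = 4) for PSC, 1597 ± 244.5 for PP1, 1179 ± 164.5 for PP2 and 2626 ± 639.5 for MSC. PSC exceeded PP1 by 5.23-fold (adjusted p = 1.32e-09) and MSC by 3.22-fold (adjusted p = 7.5e-07). For Wnt4 the excess of PSC over PP1 was 6.88-fold (adjusted p = 1.11e-06), and for Wnt11 3.701-fold (adjusted p = 9.41e-06). Wnt5b, Wnt5a and Wnt11 are known mostly for non-canonical signalling. Against MSC, 7 of the 12 ligands were lower in PP2 and none higher. Of these, Wnt2b and Wnt10a had no read in any PP2 library, and Wnt6 and Wnt7b averaged 5.85 and 19.8 there. Wnt4, Wnt5b and Wnt11 averaged 194.4, 1179 and 730.9 in PP2. MSC libraries were the deepest, and the median log2 difference of all tested genes was -0.19 in this pair.

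Of 20 tested receptors and co-receptors, 2 were higher and 8 lower in PSC than in PP1, and against PP2 the counts were 2 and 6. The Frizzled receptor Fzd2 averaged 2767 ± 758.2 for PSC, 7220 ± 702.3 for PP1, 6844 ± 605.9 for PP2 and 3547 ± 465.3 for MSC, and was 2.67-fold lower in PSC than in PP1 (adjusted p = 4.46e-07). Lrp5, a co-receptor that Dkk1 and Dkk2 bind, averaged 1532 ± 550.8 for PSC, 3245 ± 931.6 for PP1, 3256 ± 576.5 for PP2 and 3902 ± 581.8 for MSC, and was lower in PSC than in each (adjusted p = 0.000757, 0.000525 and 0.000147). Lgr5, a receptor for R-spondins, averaged 21.4 in PSC and 254.5 in PP1, 16.02-fold lower in PSC (adjusted p = 9.65e-05). Against MSC, 4 receptors were higher and 1 lower in PP1, and 3 higher and 2 lower in PP2.

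R-spondins and other extracellular modulators moved in both directions. Of the 12 tested, 1 was higher and 3 lower in PSC than in PP1, 2 higher and 2 lower in PSC than in PP2, and 6 lower in PSC than in MSC with none higher. Rspo2, an enhancer of Wnt signalling, averaged 2.92 for PSC, 236.3 for PP1, 220.5 for PP2 and 10.1 for MSC, and was lower in PSC than in PP1 (log2 difference -6.38 ± 0.84, adjusted p = 8.4e-06). Its relative Rspo3 went the other way, with 706.5 for PSC, 156.6 for PP1, 111.9 for PP2 and 431.1 for MSC, with PSC 4.56-fold above PP1 (adjusted p = 0.000196). Igfbp4, a binding protein for insulin-like growth factors that can also block Wnt receptors, averaged 12500 for PSC, 49880 for PP1, 52260 for PP2 and 16580 for MSC. PSC lay 4.06-fold below PP1 (adjusted p = 1.1e-09), and PP1 3.01-fold above MSC (adjusted p = 9.07e-08). Draxin had no read in any PSC, PP1 or PP2 library and averaged 27.2 in MSC, so it entered the test only through MSC. Its direction was thus fixed in advance. It is 1 of the 6 counted as lower in PSC than in MSC, and is also in the counts over all lists against MSC.

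Feedback and target genes of the pathway were split as well. Of 11 tested, 2 were higher and 4 lower in PSC than in PP1, and 4 higher and 3 lower in PSC than in PP2. Myc, a growth regulator that canonical signalling can raise, averaged 1384 for PSC, 516.7 for PP1, 374.8 for PP2 and 1510 for MSC, with PSC 2.66-fold above PP1 (adjusted p = 0.000467). Bambi, a decoy receptor for BMP and TGF-beta ligands, was 1.86-fold higher for PSC than for PP1 (adjusted p = 0.00114), while Twist1, a mesenchymal transcription factor, was 2.86-fold lower (adjusted p = 3.57e-05). Among 18 intracellular components, 3 were higher and 4 lower in PSC than in PP1. The cytoplasmic and nuclear effector Ctnnb1, which encodes beta-catenin, was 1.35-fold above PP1 in PSC (log2 difference 0.44 ± 0.08, adjusted p = 0.000366).

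Over the 5 lists, 33 of 73 genes passed for PSC against PP1 (12 higher and 21 lower in PSC), beside 31.2% of all tested genes. PSC against PP2 gave 32 (17 and 15), beside 32.8%, and PSC against MSC 25 (6 and 19), beside 26.3%. The count was 27 for PP1 against MSC (10 and 17 in PP1), beside 21.4%, and 33 for PP2 against MSC (7 and 26 in PP2), beside 24%. None passed between PP1 and PP2 in limma, beside 0.834%. There, 16 had an unadjusted p under 0.05, edgeR called 0 and DESeq2 called 3. The 0.834% is at the adjusted threshold, and the all-gene share at the unadjusted cut is not given here. The 16 is therefore not to be read against the 0.834%. In a fit of only the 8 libraries compared, 41 of the other Wnt genes passed for PSC against MSC. The share of all tested genes in that fit is not given here, and the 26.3% is from the fit of all 16 libraries. Whether the rise is particular to these genes is therefore not shown.

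Genes with the most similar profile were found by the root mean square difference between log2 profiles over the 16 libraries, each centred on its own mean. Closest to Wif1 were Fap (0.18), a fibroblast surface protease, C1qtnf1 (0.24) and Pros1 (0.25). For Frzb they were Clec3a (0.24), a cartilage lectin, Nim1 (0.24) and Ivns1abp (0.27). Dkk3 lay closest to Ogn (0.28), a small proteoglycan also called osteoglycin, Prrx1 (0.30), a limb mesenchyme transcription factor, and Pxdn (0.31). Sfrp1 was nearest to Mmp2 (0.26), a gelatinase, Cpm (0.27) and Tenm3 (0.27). Those of Sfrp2 were Tmem198b (0.31), Foxp1 (0.32) and Mfap2 (0.33), and those of Sfrp4 Foxp1 (0.38), Ltbp4 (0.40) and Adamts7 (0.42), so Foxp1 was on both lists. Sfrp5 had Alkbh8 (0.28), Clock (0.44), which encodes a circadian regulator, and Zfp668 (0.47). The 2 low genes had no close match, with Cadm3 (1.08), Dpp4 (1.28) and Tmem132c (1.30) for Dkk2, and Aim1 (1.00), Il20rb (1.17) and Tbc1d4 (1.18) for Dkk1. Among the antagonists themselves the closest pairs were Sfrp2 with Sfrp4 (0.58) and Dkk3 with Sfrp2 (0.58), but 412 genes lay nearer to Sfrp2 than Sfrp4 did, and 114 nearer to Dkk3 than Sfrp2 did.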

How the data were processed

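Per the labels' protocols, the RNeasy Plus Micro kit was used for RNA and TruSeq RNA for libraries, run on a HiSeq4000. Named in the submitters' processing notes are mm10, DESeq2 1.6.3, HTSeq 0.6.1, TopHat2 2.0.11, cutadapt and bcl2fastq 2.17, with order, annotation, filters and strand use not given in the sources used here. A single table of signal values was deposited by the authors. In each column the values were whole multiples of 1 step (tolerance 1e-06, 100% of values), so they are read counts divided by a size factor per library. For 2 PSC libraries the step is close to 1, and whole reads there rest on this tolerance alone. Recovered reads gave the depth and served edgeR 4.0.16 and DESeq2 1.42.0 as alternatives. Depth was 22.3 to 48.4 M reads per library. An SD is the spread between the 4 libraries of a group. The SE of a log2 difference rests on 1 estimate of spread per gene from all 16 libraries, so it is the same in every pair of groups. Both include counting error, large for Dkk1 and Dkk2 where a library holds few reads.

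Raw counts were planned for edgeR and normalized values for limma; the values are normalized, so limma 3.58.1 (R 4.3.3) was used, with an intensity trend and a term for group, on all 16 libraries. Genes at 10 or more in at least 4 libraries were tested (13797, all 9 antagonists among them). The adjusted p is by Benjamini-Hochberg within each comparison, two-sided, with a threshold of 0.05. The procedure was tested on simulated data. GENCODE M21 (GRCm38) supplied gene positions and exon lengths, and 21829 of 22559 identifiers were found in it. The antagonists and the gene lists were chosen with earlier results of these data known. Named from each Wnt list were up to 4 genes per comparison with the smallest adjusted p among those that passed (not all are printed), and for each antagonist the 3 genes of most similar profile. Alternatives were a pseudocount of 0.5 or 8, no filter, a minimum of 50, TMM rescaling, a replicate block, a fit of the 8 libraries of each pair, and leaving out every library in turn. Those added after seeing the data were leaving out PP2 replicates 1 and 3, and keeping genes that had a read in each of the 16 libraries.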

Additional observations from a re-analysis of the deposited data

Results flagged for a closer look

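Among the 36 sets of 4 libraries (9 antagonists in 4 groups), 4 held a library whose gap to its nearest neighbour, divided by the range of its group, was above Dixon's 95% critical value. Chance gives about 1 in 20 such sets. Dkk2 in PSC replicate 3 read 39.2 normalized counts where the next highest PSC library read 1.16, a gap of 0.97 of the range. Sfrp2 in the same library read 996.6 against 537.9 (0.872), and this library was also the highest PSC library for Dkk3 and for the sum of the fibroblast list. In PP1 replicate 4, Sfrp2 was low at 1467, where the next lowest library read 2537 (0.852). Sfrp5 in PSC replicate 1 read 5152 where the next highest read 2987 (0.831).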

How the results depend on the processing

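Of 1446 values of the 54 gene-by-pair comparisons under the alternatives, 1404 kept direction and side of the threshold, 24 lost the call, 9 gained one and 9 changed sign, and 41 comparisons kept both throughout. The sign changes were all of differences that did not pass: Sfrp5 between PSC and MSC was -0.22 without PSC replicate 1, -0.037 without MSC replicate 2 and -0.02 without MSC replicate 4. Dkk1 between PSC and MSC was 0.098 without PSC replicate 2, 0.065 without PSC replicate 3, 0.052 without MSC replicate 1 and 0.12 without MSC replicate 3, and with each library left out it ran from -0.24 to 0.12. Dkk2 between PP1 and PP2 was -0.019 without PP1 replicate 1 and -0.005 without PP2 replicate 2, at most 0.47 with any other single library left out, and 0.58 without PP2 replicates 1 and 3.

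The 115 genes called between PP1 and PP2 were 410 in DESeq2, 28 in the 8 libraries compared and 89 to 181 with 1 library left out, the highest without PP2 replicate 4. Of the antagonists, those called there were 1 in the 8 libraries and 1 to 3 with 1 left out, and the other Wnt genes 3 in DESeq2 and 0 to 2 with 1 left out. Other Wnt genes for PSC against MSC were 41 in the 8 libraries, a fit whose all-gene count for this pair is not given here. DESeq2 called 1 antagonist higher and 2 lower in PP1 than in PP2. For PP1 against MSC, edgeR and DESeq2 each called 4 higher and 1 lower, without Dkk1, and for PSC against PP1 edgeR called 1 higher and 6 lower. The all-gene counts of these methods for those pairs are not given here. With only genes read in all 16 libraries, all-gene calls between PP1 and PP2 were 33 higher and 49 lower in PP1, against 66 and 49.

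Replicate numbers are shared by the groups, but no label says what they pair. Same-numbered libraries correlated between -0.018 and 0.149 in their deviations from group means, over 0.1 in 2 of 24 pairs, although all 16 libraries correlated best with their own number, a hint from the data and not the design. With a replicate block, PP1 against PP2 gave 227 called genes, 2 other Wnt genes and 3 antagonists, Wif1 added (adjusted p = 0.0028), and Wif1 also passed for PP2 against MSC (0.00182).

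The median log2 difference of all genes against MSC was -0.18 for PSC and PP1 and -0.195 for PP2, and -0.04, -0.034 and -0.03 in edgeR. The 4 libraries per group limit small differences, and the sizes for Dkk1 and Dkk2 rest on libraries near 0 reads. Cell type lists and antagonists vary with the same sorts and cannot be told apart by this design.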
